A study of Mus musculus with 40 samples.

Results

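The first 6 hr of tetracycline (Tet) treatment were followed in ZHBTc4, a mouse embryonic stem (ES) cell line in which Tet switches off the only working copy of Pou5f1. The 6 arrays are the 0, 3 and 6 hr arrays of the early time course, chosen by their labels, and they belong to 40 arrays of the whole series. The 4 arrays of 3 and 6 hr were compared with the 2 arrays of 0 hr. Each array carries RNA of the cells in Cy3 (green) and the Universal Mouse Reference Cell Line Pool, a fixed mixture of RNA from cultured mouse lines, in Cy5 (red), and no array carried the dyes the other way round. Therefore the usual value, log2(Cy3/Cy5), moves when either channel moves, and the sample channel and the reference channel were also followed one at a time after scaling between arrays.

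The 3 groups share strain 129/Ola and the labels' genetic modification, "Transgenic and Knock down". ZHBTc4 is 1 ES clone with both endogenous Pou5f1 alleles disrupted and a Pou5f1 transgene that Tet represses. All cultures were kept with LIF, passaged on gelatin so that feeder cells were lost, and given Tet 24 hr after plating. The 0 hr group was harvested before Tet (2 arrays), and the others 3 hr (2 arrays) and 6 hr (2 arrays) after it. No culture without Tet was harvested at 3 or 6 hr, so the loss of Pou5f1, Tet itself and further time in culture cannot be told apart. Nothing says that the replicates are separate cultures, so the p-values measure only the spread between these arrays, which may be technical. All RNA is bulk RNA, in which fewer cells of a type and less RNA per cell cannot be told apart.

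POU5F1 (OCT4) is a POU-domain transcription factor that binds the octamer element, often beside SOX2, and keeps ES cells pluripotent. Its loss in ES cells is known to lead to trophectoderm, the outer cell layer of the blastocyst that CDX2, GATA3 and HAND1 mark. FOXD3, NANOG, SOX2, KLF2, KLF4 and NR0B1 are other regulators of the pluripotent state. Messenger RNA with a short half-life follows the loss of its activator within hours, and stable mRNA follows later.

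On these 6 arrays the median Cy3 signal was 595 to 648 over a local background of 377 to 384, and the median Cy5 signal was 563 to 661. Between 1.32% and 4.29% of the gene probes read below what 95% of the negative control spots stayed under in Cy3. Replicate arrays differed by a median SD of 0.10 to 0.15 (log2) in Cy3, 0.15 to 0.19 in Cy5 and 0.11 to 0.17 in the ratio. Before scaling, the median gene read -0.17 (log2) lower at 3 and 6 hr than at 0 hr in each channel. At 6 hr alone the shift from 0 hr was -0.17 in Cy3 and -0.26 in Cy5. All single-channel changes are given relative to the shift of their own channel and comparison. The images were quantified in the order of treatment time, from the first 0 hr array to the last 24 hr array, so that order and treatment cannot be told apart. Of the ES cell markers, Sox2, Nanog, Zfp42, Tdgf1, Utf1 and Dppa5a were high at all 3 times, whereas Esrrb read only 1.08 times the negative controls. Some probes of Dppa5a were flagged as saturated in Cy3 on all 6 arrays, where a change in level can be hidden. The summed Cy3 signal of 7 fibroblast (feeder) markers measured on all 6 arrays was 11100 to 11900 at 0 hr and 11900 to 12100 at 6 hr. Most of that sum was Fn1 (7120 at 0 hr) and Tagln (3260), while Postn, Col1a2 and Dcn read 1.04 to 1.41 times the negative controls. With 3 and 6 hr pooled none of the markers of ES cells, fibroblasts, trophectoderm or primitive endoderm was called. As 0 of 39002 genes were called in that comparison, this says nothing about cell types. At 6 hr alone Krt8, Hnf4a and Pdgfra were called higher in the ratio, beside 2.07% of all genes. Each had less than 1.5-fold in Cy3.

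The probes below carry the results on Pou5f1 and on the genes that were lower in the sample channel at 6 hr, as 60-base oligonucleotides written 5′ to 3′. Capitals mark runs of 3 or more G, a base composition that turned out to differ between the groups of probes described later.
Pou5f1, first probe: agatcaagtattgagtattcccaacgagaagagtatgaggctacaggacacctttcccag
Pou5f1, second probe: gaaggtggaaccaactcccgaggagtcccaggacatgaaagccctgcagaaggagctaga
Foxd3: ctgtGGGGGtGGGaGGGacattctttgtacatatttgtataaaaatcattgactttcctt
Zfp296: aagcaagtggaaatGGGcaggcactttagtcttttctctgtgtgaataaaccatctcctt
Tet2: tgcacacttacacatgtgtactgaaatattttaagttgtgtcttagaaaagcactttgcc
Enox1: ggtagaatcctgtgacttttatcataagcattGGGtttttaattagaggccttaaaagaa
Nr0b1: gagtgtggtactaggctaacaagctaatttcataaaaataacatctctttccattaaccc

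Pou5f1 was measured by both of the probes printed above, which did not give the same answer. At the first probe the Cy3 signal (log2, scaled) was 10.88 and 8.97 on the 0 hr arrays, 8.02 and 8.03 at 3 hr, then 7.5 and 7.20 at 6 hr. All 4 treated arrays lay below both 0 hr arrays, but the 0 hr arrays themselves were far apart. The difference of 3 and 6 hr from 0 hr was -2.24 in Cy3 (adjusted p = 0.142) and -2.18 in the ratio (adjusted p = 0.104), and neither passed the test. Without the second 0 hr array the Cy3 difference was -3.19 (adjusted p = 0.000148), and without the first it was -1.28. At 6 hr alone the ratio fell by 2.53 (SE 0.34, adjusted p = 0.0254), from 2.92 and 1.52 to -0.36 and -0.26. That call was lost in 5 of 21 alternatives, among them leaving out the first 0 hr array (-1.83, adjusted p = 0.083) or the second 6 hr array (adjusted p = 0.108), the bleaching correction (0.0962) and the local median (0.101), and the adjusted p reached 0.629 by the study's error variance.

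At the second and brighter probe the Cy3 signal was 11.12 and 10.78 at 0 hr, 10.86 and 11.19 at 3 hr, then 9.96 and 10.69 at 6 hr. The 3 hr arrays overlapped the 0 hr arrays, and the 6 hr arrays lay below them by a mean of -0.62 (adjusted p = 0.234). Where each probe lies relative to the transgene and to the disrupted alleles was not determined here, so the 2 probes are not interchangeable as measures of the repression. On the late arrays, a separate experiment on the same line, the sequence of the first probe read -2.18 at 24 hr against 0 hr (adjusted p = 2.41e-10, 3 arrays each). Thus the ratio at the first probe was lower by 6 hr of Tet, and the size of the difference rests on which 0 hr array it is set against.

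**Figure D1:**
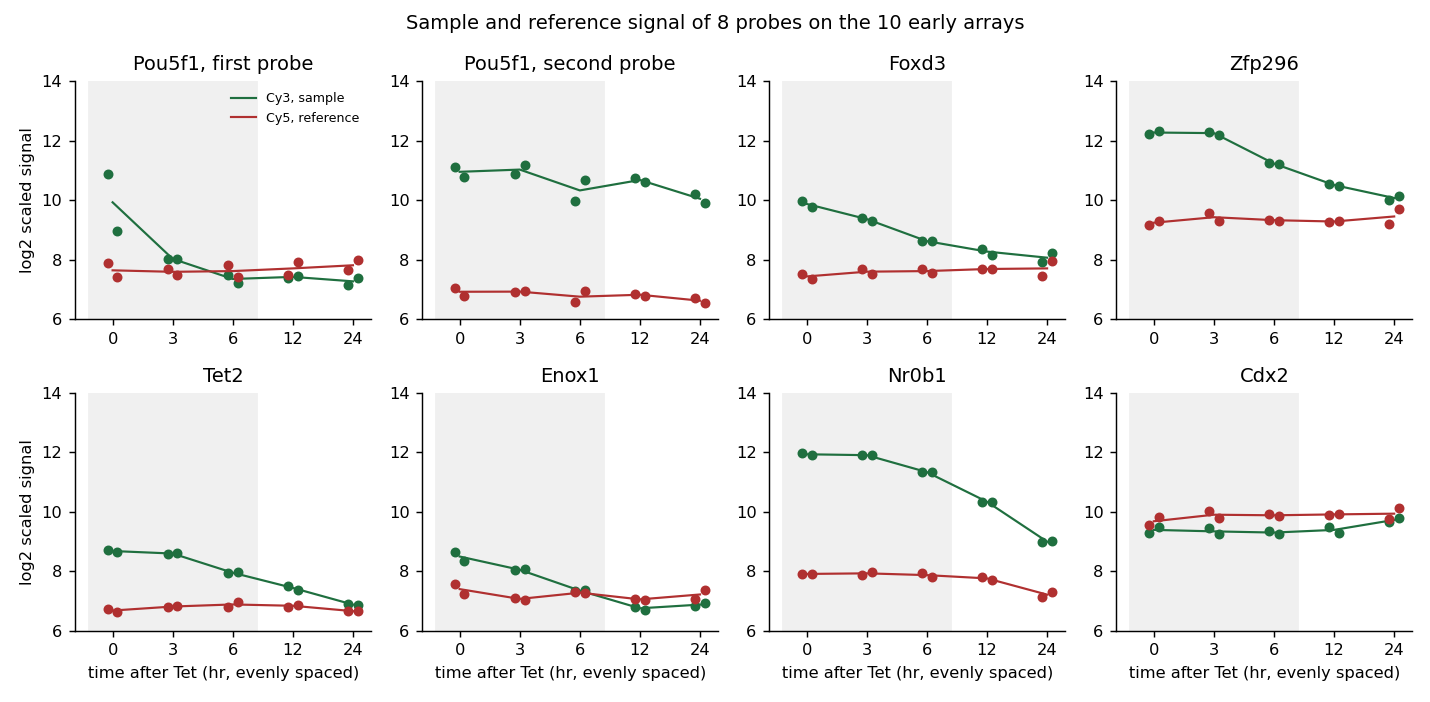
Log2 scaled Cy3 (sample, green) and Cy5 (reference, red) signal of 8 probes on the 10 early arrays, with points for arrays, lines through the means and grey for the times compared here (times evenly spaced). Foxd3, Zfp296, Tet2, Enox1 and Nr0b1 are lower in Cy3 at 6 hr on both arrays while Cy5 stays level, and Cdx2, whose probe did not respond by the study's account, reads 9.30 and 9.48 at 0 hr against 9.34 and 9.26 at 6 hr.

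With 3 and 6 hr pooled, limma called no gene, a call being an adjusted p (Benjamini-Hochberg) of at most 0.05 together with a 1.5-fold change. The share called was 0% of 39002 genes in the ratio, where the smallest adjusted p was 0.0694 and 6435 genes had an unadjusted p under 0.05. It was likewise 0% in Cy3 (smallest adjusted p 0.133, with 6456 genes under 0.05) and 0% in Cy5 (0.223, with 5633 genes). The error variance rule of the study's methods also called 0 in each. The count in the ratio was 463 without either 12 hr array, 58 without either 24 hr array and 4 without the second 6 hr array, and that in Cy3 was 37 without the second 0 hr array. With only the 6 arrays in the fit it was 891 in the ratio and 111 in Cy5, and with the replicate number as a block it was 541 in the ratio. The smallest adjusted p in the ratio belonged to Foxd3 (-1.01), which ranked first.

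At 6 hr alone the ratio called 848 genes, 2.17% of those tested, of which 809 were higher and 39 lower. The sample channel by itself called 3 genes (0.00769%), all lower, and the reference channel called 0 (7030 at an unadjusted p under 0.05, and 0 by the study's rule). At 3 hr alone, 0 genes were called in the ratio (2414 under 0.05), 0 in Cy3 (3931) and 0 in Cy5 (2271), and the study's rule also called 0. The 848 became 0 without either 0 hr array, 4 without the second 6 hr array, 164 without either 3 hr array, 380 without the first 6 hr array, 1323 without either 12 hr array and 1320 without either 24 hr array. With the Cy5 signals corrected for bleaching in the way of the study's methods the count was 28. The 0 in Cy5 became 404 (365 lower) without either 12 hr array and 1160 (940 lower) with only the 6 arrays in the fit. The 3 Cy3 calls became 0 without the first 0 hr array, either 3 hr array or either 12 hr array, 22 without either 24 hr array and 36 without the second 0 hr array. Without either 6 hr array none of the 3 was called, and 1 gene was called higher. Since these 6 hr calls were looked for after the pooled comparison had given none, the genes named from them were chosen after their values were seen.

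The 3 genes called in the sample channel at 6 hr were Zfp296, Foxd3 and Enox1. Zfp296, a zinc finger protein of ES cells and the germ line, read 12.21 and 12.33 in Cy3 at 0 hr, 12.30 and 12.20 at 3 hr, then 11.23 and 11.22 at 6 hr. The 3 hr arrays lay among the 0 hr arrays, and both 6 hr arrays lay far below. It fell by 1.04 (SE 0.09, adjusted p = 0.0237) from 0 to 6 hr and by 1.03 (adjusted p = 0.0138) between 3 and 6 hr, both in Cy3. At 12 hr it read 10.53 and 10.48, and at 24 hr 10.00 and 10.14, lower again than at 6 hr.

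Foxd3, a forkhead transcription factor needed for the early epiblast, read 9.97 and 9.77 in Cy3 at 0 hr, 9.41 and 9.31 at 3 hr, then 8.61 and 8.63 at 6 hr. All 4 treated arrays lay below both 0 hr arrays, and the 6 hr arrays below the 3 hr arrays. It fell by 1.25 in Cy3 (SE 0.13, adjusted p = 0.0244) and by 1.38 in the ratio (SE 0.11, adjusted p = 0.00639) at 6 hr, while Cy5 read 7.53 and 7.34 at 0 hr against 7.69 and 7.54 at 6 hr. The ratio call was lost in 3 of 21 alternatives, without the first (adjusted p = 0.126) or second (0.166) 0 hr array and by the study's error variance (0.629). With each array's local median subtracted, an alternative chosen after seeing the data, Foxd3 was called with 3 and 6 hr pooled in Cy3 (-0.89, adjusted p = 0.00576) and in the ratio (-0.90, adjusted p = 0.0393).

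Enox1, which encodes a hydroquinone oxidase of the cell surface, read 8.65 and 8.34 in Cy3 at 0 hr, 8.03 and 8.07 at 3 hr, then 7.32 and 7.38 at 6 hr. It fell by 1.14 (SE 0.11, adjusted p = 0.0237) at 6 hr. A second probe of Enox1, with a Cy3 level of 6.93 at 0 hr against 8.49 at the first, differed by -0.11 at 6 hr, so the fall was seen at 1 of 2 probes. The changes of the 3 genes in Cy3 at 6 hr ranged from -0.98 to -1.21 for Zfp296, -1.15 to -1.42 for Foxd3 and -0.99 to -1.43 for Enox1 over 20 alternatives, but each lost its call in 11 of them. Those included the fit on the 6 arrays alone (adjusted p of 0.0537, 0.0537 and 0.115), and adjusted p values over all alternatives reached 0.795.

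Tet2, which oxidizes methylated cytosine in DNA, and Nr0b1 (DAX1), an orphan nuclear receptor that binds POU5F1, were the next to follow. Tet2 read 8.70 and 8.66 in Cy3 at 0 hr, 8.57 and 8.62 at 3 hr, then 7.94 and 7.96 at 6 hr. In the ratio it fell by 0.93 at 6 hr (SE 0.10, adjusted p = 0.0152), and in Cy3 the difference was -0.73 (adjusted p = 0.0724). The ratio call of Tet2 was lost in 6 of 21 alternatives, among them without the first 0 hr array (adjusted p = 0.234), the second (0.187) or the second 6 hr array (0.0995), with adjusted p values up to 0.629. Nr0b1 read 11.96 and 11.90 at 0 hr, 11.89 and 11.91 at 3 hr, then 11.32 and 11.34 at 6 hr in Cy3. Its difference was -0.60 in Cy3 (SE 0.08, adjusted p = 0.0908) and -0.47 in the ratio (adjusted p = 0.0434), under the fold threshold in the ratio. As with Zfp296, both genes were near their 0 hr level at 3 hr and below it on both arrays at 6 hr.

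The late arrays hold the same probe sequences for these genes, and their values are a description, since the genes were chosen with earlier results of the series known. There Foxd3 fell by 1.70 (adjusted p = 1.93e-10), Tet2 by 2.10 (adjusted p = 3.04e-11), Zfp296 by 1.39 (adjusted p = 8.5e-08) and Nr0b1 by 2.27 (adjusted p = 1.35e-12) in the ratio at 24 hr against 0 hr. Foxd3 for example read 2.25, 2.42 and 2.43 at 0 hr and 0.76, 0.62 and 0.61 at 24 hr. Enox1 differed by -0.35 (adjusted p = 0.0224), less than 1.5-fold, and was not called there. Of the 17777 genes matched between the designs, 3.83% were called lower on the late arrays and 4.19% higher.

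The octamer, ATGCAAAT or its reverse complement ATTTGCAT, was looked for on both strands of RefSeq promoters (250 bases before to 50 after the gene start, build GRCm38.p6). It stood in 570 of 32851 promoters (1.74%). Among Zfp296, Foxd3, Enox1, Tet2, Nr0b1 and Dgkz (described below), the promoter of Zfp296 held it and those of the others did not. The Zfp296 promoter, shown because the gene was called in the sample channel, lies at chr7:19577037-19577336 on the plus strand, and capitals mark the octamer.
Zfp296 promoter: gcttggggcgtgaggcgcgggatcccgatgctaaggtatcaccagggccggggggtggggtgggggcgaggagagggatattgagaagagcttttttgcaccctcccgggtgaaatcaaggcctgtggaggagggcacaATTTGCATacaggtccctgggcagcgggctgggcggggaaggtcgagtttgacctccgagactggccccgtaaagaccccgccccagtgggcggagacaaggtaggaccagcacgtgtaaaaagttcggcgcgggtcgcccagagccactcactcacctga
The match is a description of these letters, and binding there was not measured on these arrays.

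The core and naive pluripotency factors, a list of 20 genes of which 19 were measured, gave 1 call in Cy3 at 6 hr (Foxd3). On both 6 hr arrays 12 of the 19 lay below both 0 hr arrays, against 16.5% of all genes, and 2 lay above, against 40.2%. The median difference in Cy3 was -0.23, beside 0.08 over all genes. In the ratio 3 of the 19 were called, all lower, beside 0.1% of all genes called lower. They were Foxd3, Klf2 (-0.60, adjusted p = 0.0476) and Klf4 (-0.70, adjusted p = 0.0449), the last 2 being Krüppel-like factors of naive ES cells.

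Klf2 has 2 probes. The brighter read 14.52 and 14.53 in Cy3 at 0 hr, 14.46 and 14.49 at 3 hr, then 14.02 and 14.15 at 6 hr, a difference of -0.44 (adjusted p = 0.147). The other gave -0.51 in Cy3 and -0.41 in the ratio (adjusted p = 0.0687), so the call of Klf2 was made at 1 of 2 probes. Klf4 differed by -0.31 and -0.35 in Cy3 at its 2 probes, and by -0.70 and -0.50 in the ratio, each with an adjusted p under the threshold (0.0449 and 0.0433) but the latter under 1.5-fold.

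Sox2, Nanog and Zfp42 of the list were near their 0 hr level, although both 6 hr arrays of Sox2 and of Zfp42 lay slightly below both 0 hr arrays. Sox2, the partner of POU5F1, read 14.40 and 14.12 at 0 hr against 14.04 and 14.09 at 6 hr in Cy3 (difference -0.19, adjusted p = 0.419). Nanog read 12.91 and 12.64 at 0 hr against 12.72 and 12.67 at 6 hr (difference -0.08, adjusted p = 0.703). Zfp42 (REX1), a zinc finger protein of ES cells, read 15.90 and 15.93 at 0 hr against 15.78 and 15.88 at 6 hr. Mybl2, a MYB factor of the cell cycle, read 10.53 and 9.07 at 0 hr, 8.40 and 8.28 at 3 hr, then 9.05 and 8.15 at 6 hr. All treated arrays of Mybl2 lay below both 0 hr arrays, the nearest (9.05) only just below the second (9.07). The 0 hr arrays were far apart, so the size of the Mybl2 difference at 3 and 6 hr (-1.33, adjusted p = 0.215) depends on them. On the late arrays the same probe sequence was called lower in the ratio at 24 hr against 0 hr (-1.36, adjusted p = 0.000139). The 22 ES cell genes known to be linked to POU5F1 had a median of 0.03 in Cy3 at 6 hr, with 0 calls in Cy3 (3 at an unadjusted p under 0.05, and 0 by the study's rule).

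Slc7a3, a transporter of cationic amino acids, read 13.26 and 13.18 in Cy3 at 0 hr, 13.18 and 13.12 at 3 hr, then 12.62 and 12.67 at 6 hr, a difference of -0.57 (adjusted p = 0.110). At 12 hr it read 10.68 and 10.74, so that the larger part of its loss came after the window. Sema4c, a membrane semaphorin, read 9.77 and 9.87 at 0 hr, 9.81 and 9.86 at 3 hr, then 10.48 and 10.48 at 6 hr (difference 0.66, adjusted p = 0.0908). It rose by 1.42 in the ratio of the late arrays (adjusted p = 3.49e-11). Spsb4, an adaptor of an E3 ubiquitin ligase, differed by 0.68 in Cy3 (adjusted p = 0.0908) and by 0.53 in the ratio (adjusted p = 0.0386), with 9.61 and 9.63 at 6 hr against 8.97 and 8.92 at 0 hr. All 3 genes lay at the 0 hr level at 3 hr.

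The trophectoderm markers had 0 calls in Cy3 among 18 of 21 genes measured (9 at an unadjusted p under 0.05 at 6 hr, and 0 by the study's rule). On both 6 hr arrays 15 of the 18 lay above both 0 hr arrays, against 40.2% of all genes, with a median of 0.24 beside 0.08. Such a share was not particular to this list. By the same count 74 of 83 cytosolic ribosomal proteins, 56 of 71 mitochondrial ribosomal proteins and 13 of 17 p53 and stress genes lay above. In these 3 lists 1, 2 and 0 lay below. Hand1, a basic helix-loop-helix factor of trophoblast, read 8.82 and 8.68 at 0 hr, 8.73 and 8.97 at 3 hr, then 9.36 and 9.29 at 6 hr at its brighter probe (difference 0.58, adjusted p = 0.166). Its Cy5 signal was higher as well (0.47 at 6 hr and 2.09 at 24 hr), so that the ratio at 6 hr differed by only 0.17. Gata3 differed by 0.38 (adjusted p = 0.166) and Gata2 by 0.44 (adjusted p = 0.145). At 12 hr Hand1 read 10.45 and 10.34 and Gata3 10.10 and 10.00, above their 6 hr arrays. Cdx2 read 9.30 and 9.48 at 0 hr against 9.34 and 9.26 at 6 hr, and the groups overlapped. By the study's own account its array probe for Cdx2 did not respond, so the signal cannot be read as the level of the gene. The summed signal of 9 trophectoderm markers was 18300 to 20400 at 0 hr, 20000 to 20400 at 3 hr and 22400 to 23100 at 6 hr. Most of that sum was Krt18 (11800 at 0 hr) and Krt7 (6500), which differed by 0.34 and 0 in Cy3 at 6 hr.

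In the remaining lists no gene was called in Cy3 at 6 hr. Of the 27 immediate early genes, which answer growth signals within minutes, 8 had an unadjusted p under 0.05 in Cy3, beside 17.1% of all genes, and the median difference was 0.16, beside 0.08. Fos read 7.10 and 7.01 at 0 hr, 7.11 and 7.10 at 3 hr, then 7.27 and 7.37 at 6 hr, and Egr1 differed by 0.30 at 6 hr (adjusted p = 0.229). Of 17 p53 and stress genes 8 had an unadjusted p under 0.05 (median 0.21), of 12 primitive endoderm markers 5 (0.17), of 12 epiblast and early neural markers 3 (0.12), of 9 LIF and STAT3 genes 4 (0.16), of 10 BMP and Id genes 3 (0.09) and of 11 ERK feedback genes 4 (0.09). Of 23 cell cycle genes there were 8 (0.15), of 7 heat shock genes 1 (0.17), of 11 glycolysis and hypoxia genes 2 (0.11), of 10 cholesterol synthesis genes 2 (0.14), of 71 mitochondrial ribosomal proteins 22 (0.17) and of 83 cytosolic ribosomal proteins 17 (0.17). Of 9 fibroblast markers 2 (0.09) and of 27 markers of the cell types in the reference 2 (0.12) had such a p. The study's rule called 0 in Cy3 over all genes.

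The ratio calls in these lists lay mostly in the reference channel. At 6 hr the ratio called 18 of 398 measured list genes as higher (4.52%, beside 2.07% of all genes) and 4 as lower. They were Dnmt3l and Lefty1 among the genes linked to POU5F1, Fosb and Rhob among the immediate early genes, Bmp4, Krt8, Hnf4a and Pdgfra, Pou3f1, Cdkn1a, Gadd45b and Ddit4, Aurka, Eno1, Cd74, and Mrpl36, Mrpl45 and Mrpl55. In Cy3 only Cdkn1a of these was 1.5-fold higher (0.59, adjusted p = 0.181), and in Aurka, Cd74 and Lefty1 neither channel reached 1.5-fold. Osmr, the oncostatin M receptor, was the only list gene outside the pluripotency factors that was called lower (-0.61 in the ratio, -0.25 in Cy3). Cdkn1a, the p21 inhibitor of cyclin-dependent kinases, read 9.33 and 9.55 at 0 hr, 9.85 and 9.94 at 3 hr, then 10.13 and 9.93 at 6 hr. A second probe of Cdkn1a differed by -0.14 at 6 hr, and on the late arrays the sequence of the first probe was called lower (-0.72). Grrp1 was the other gene called higher in the ratio that was 1.5-fold higher in Cy3, with 9.92 and 9.84 at 0 hr against 10.55 and 10.55 at 6 hr (0.67, adjusted p = 0.0908).

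The 848 ratio calls at 6 hr were split by channel. A call counted as moved in Cy3 where Cy3 alone changed at least 1.5-fold in its direction, and as moved only in Cy5 where Cy3 changed less than 1.5-fold and Cy5 at least 1.5-fold the opposite way. Of the calls, 19 moved in Cy3 (17 lower, 2 higher) and 675 only in Cy5 (672 higher, 3 lower). With the bleaching correction these were 9 and 17, and with the local median 3 and 0. They were 0 and 0 without either 0 hr array, 2 and 2 without the second 6 hr array, 6 and 128 without either 3 hr array, and at most 34 and 1008, without either 12 hr array. The other 154 (135 higher, 19 lower) had less than 1.5-fold in each channel. The 672 had a median of 1.02 in the ratio, 0.11 in Cy3 and -0.88 in Cy5. On the late arrays 376 of the 672 have the same probe sequence, and 6.91% of them were called higher there and 23 genes lower, beside 4.19% and 3.83% of all matched genes.

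**Figure D2:**
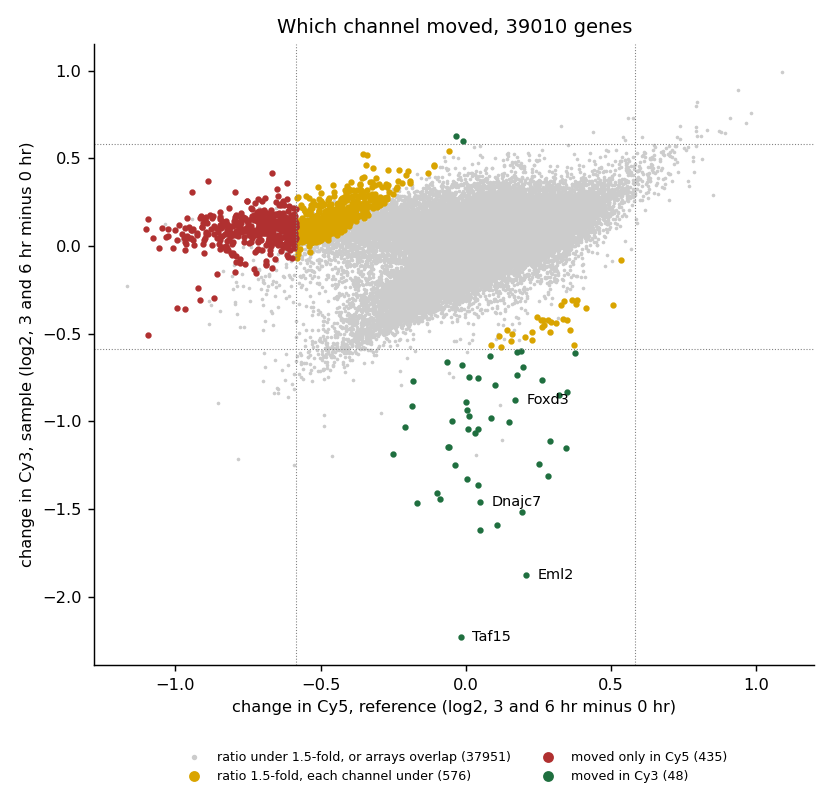
Change in the sample channel (Cy3, vertical) against change in the reference channel (Cy5, horizontal) as log2 of 3 and 6 hr minus 0 hr, with dotted lines at 1.5-fold and 1 point per gene. Genes whose ratio moved only in Cy5 (red, 435) form a band at a Cy3 change near 0, those that moved in Cy3 (green, 48) lie apart with 46 below it, and yellow marks genes that passed 1.5-fold in the ratio but in neither channel (546 higher, 30 lower).

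The same split was made by size for 3 and 6 hr pooled, among genes whose ratio changed 1.5-fold with all 4 treated arrays on 1 side of both 0 hr arrays. Such genes made up 2.72% of those tested (983 higher and 76 lower), with no test behind them. Moved in Cy3 were 46 lower and 2 higher, and moved only in Cy5 were 435, all higher. Over the 435 the median change was 0.86 in the ratio, 0.10 in Cy3 and -0.70 in Cy5. Their median Cy3 signal was 9.75 and 9.75 on the 0 hr arrays, 9.83 and 9.80 at 3 hr, then 9.81 and 9.84 at 6 hr. Their median Cy5 signal was 9.57 and 9.65 at 0 hr, 9.29 and 9.10 at 3 hr, then 8.60 and 8.41 at 6 hr. The reference is the same RNA on every array, and by the definition of the set none of these genes reached 1.5-fold in the sample channel. With the bleaching correction 30 genes met the rule in place of 435, with each array's local median subtracted 63, and with either array of a group left out 193 to 789. The Cy5 medians were 9.44 and 8.59 at 12 hr and 8.78 and 8.18 at 24 hr, so that the replicate arrays of 12 and of 24 hr lay further apart than those of 0, 3 and 6 hr.

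**Figure D3:**
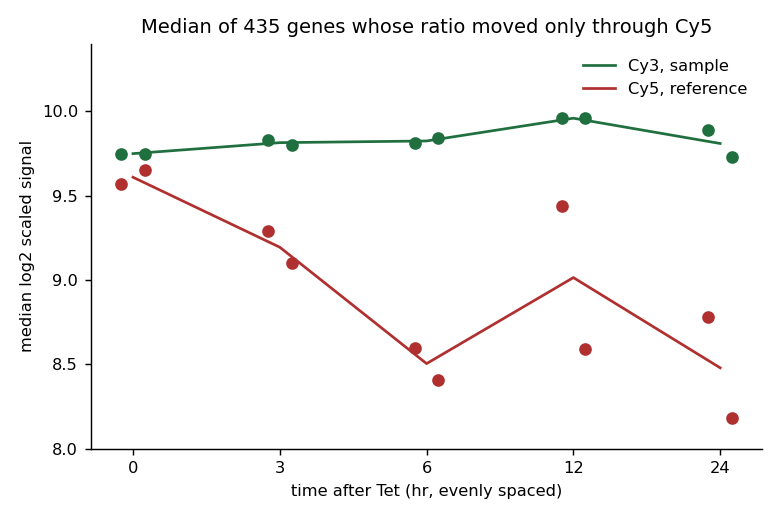
Median log2 scaled signal of the 435 genes that moved only in Cy5 on each of the 10 early arrays, with points for arrays and lines through the means (times evenly spaced). Cy3 stays between 9.73 and 9.96, whereas Cy5 drops from 9.57 and 9.65 at 0 hr to 8.60 and 8.41 at 6 hr and reads 9.44 and 8.59 on the 2 arrays of 12 hr.

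The genes that moved only in Cy5 shared a place on the array. The early array has 206 rows and 430 columns of spots. Of the 435 genes, 403 (92.6%) lay in columns 1 to 72, the first sixth of the width, against 16.2% of all genes, with quartiles of their row at 31 and 67. Of the 672 called at 6 hr, 515 (76.6%) lay there. Over all gene probes of those columns the ratio change of 3 and 6 hr was 0.22 at the median, beside -0.13 in the last sixth. Their Cy5 level at 0 hr was 9.62 (median), beside 8.06 over all genes, and their probes held less G (median 18.3% beside 21.7%) and more T (31.7% beside 28.3%). At least 1 run of GGG stood in 28.3% of their probes, beside 40.8% of all. Place, brightness and base composition moved together with the drop in Cy5, and their separate parts in it were not tested.

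The probe sequences of Gadd45b, which links stress signals to growth arrest, Hbegf, an EGF family ligand, and Cherp, an RNA-binding protein, are given as the examples with the largest ratio changes. None holds a run of 3 G.
Gadd45b: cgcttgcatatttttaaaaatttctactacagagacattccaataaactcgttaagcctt
Hbegf: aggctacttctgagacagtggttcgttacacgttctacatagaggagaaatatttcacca
Cherp: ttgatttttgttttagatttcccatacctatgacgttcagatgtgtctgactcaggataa
In the ratio Gadd45b read -0.10 and -0.14 at 0 hr, 0.57 and 0.72 at 3 hr, then 1.72 and 1.84 at 6 hr, and was called (1.90, adjusted p = 0.0316). In Cy3 it read 9.99 and 9.91 at 0 hr, 10.34 and 10.31 at 3 hr, then 10.30 and 10.32 at 6 hr, a difference of 0.36 at 6 hr (adjusted p = 0.181). Hence most of the change in the ratio of Gadd45b at 6 hr lay in the reference. Hbegf gave 1.87 in the ratio and 0.39 in Cy3 (adjusted p = 0.188). Bmp4, a ligand of the BMP pathway, gave 1.59 in the ratio (adjusted p = 0.0498) and 0.12 in Cy3 (adjusted p = 0.45), with the first 3 hr array missing at this probe. On the late arrays the sequence of Gadd45b was called higher at 24 hr (2.73, adjusted p = 1.4e-13), whereas that of Bmp4 (-0.42) was not called.

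Where the same gene has another probe beyond column 72, the 2 probes can be set side by side. Of the genes moved only in Cy5 by size, 20 have one. Their ratio changed by a median of 0.93 at the first probe and 0 at the other (range -0.26 to 0.65), while Cy3 differed by 0.10 and 0.06 and Cy5 by -0.76 and 0.08. Of the 6 hr calls 26 have one, with 1.15 at the first probe and -0.08 at the other (range -0.40 to 0.42), and 0 of the 26 other probes reached 1.5-fold. Cherp for example gave 1.82 at column 36 and 0 at column 401, and Hdac1, a histone deacetylase, gave 1.14 at column 49 and -0.07 at column 263.

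Krt7, a keratin of simple epithelia and trophoblast, has 2 probes that share 33 bases, printed in capitals, because they hold the same stretch of the gene at different places on the array.
Krt7, column 27: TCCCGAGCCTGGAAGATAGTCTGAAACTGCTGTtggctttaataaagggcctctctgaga
Krt7, column 247: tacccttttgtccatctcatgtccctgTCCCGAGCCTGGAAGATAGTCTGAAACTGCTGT
At column 27 the ratio read 0.76 and 0.75 at 0 hr, 1.28 and 1.35 at 3 hr, then 2.16 and 2.11 at 6 hr, and was called (1.38, adjusted p = 0.0276). At column 247 it read 0.28 and 0.23 at 0 hr, 0.40 and 0.21 at 3 hr, then 0.19 and 0.19 at 6 hr (-0.06, adjusted p = 0.713). In Cy3 the differences were 0.22 and 0. Thus the ratio rose at 1 probe of Krt7, and at the other it lay slightly below both 0 hr arrays on the 6 hr arrays, a difference that did not pass the test. On the late arrays the sequence of the column 27 probe was called higher at 24 hr (1.71, adjusted p = 1.63e-10).

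In the sample channel by size, 172 genes were lower and 23 higher at 3 and 6 hr (0.5% of those tested). Of the 172, 95 lay below both 0 hr arrays at 12 and 24 hr as well, 51 lay above all 4 arrays of 3 and 6 hr again at 12 and 24 hr, and 26 lay between. Of the 95, 85 (89.5%) stood in columns 216 to 287 beyond row 103, against 8.45% of all genes. Their median ratio change was -0.11 beside a Cy3 change of -0.65, so their reference channel was lower with the sample channel. Foxd3 and Enox1 are in this set by their course, but Foxd3 stands at column 353, whereas Enox1 stands at column 250 in row 154, in that patch. Its ratio fell by 1.02 at 6 hr (adjusted p = 0.0152), a call that was lost in 5 of 21 alternatives. Those were the local median, which takes out the place on the array (-0.90, adjusted p = 0.0595), the first (0.234) or second (0.187) 0 hr array or the second 6 hr array (0.0716) left out, and the study's error variance (0.629). In 171 of the 172 genes the first 0 hr array read higher than the second, beside 20503 of all 39010 genes, so the choice of these genes rests in part on that array. Without 1 array of the 6 the count of genes lower in Cy3 ranged from 69 to 684.

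**Figure D4:**
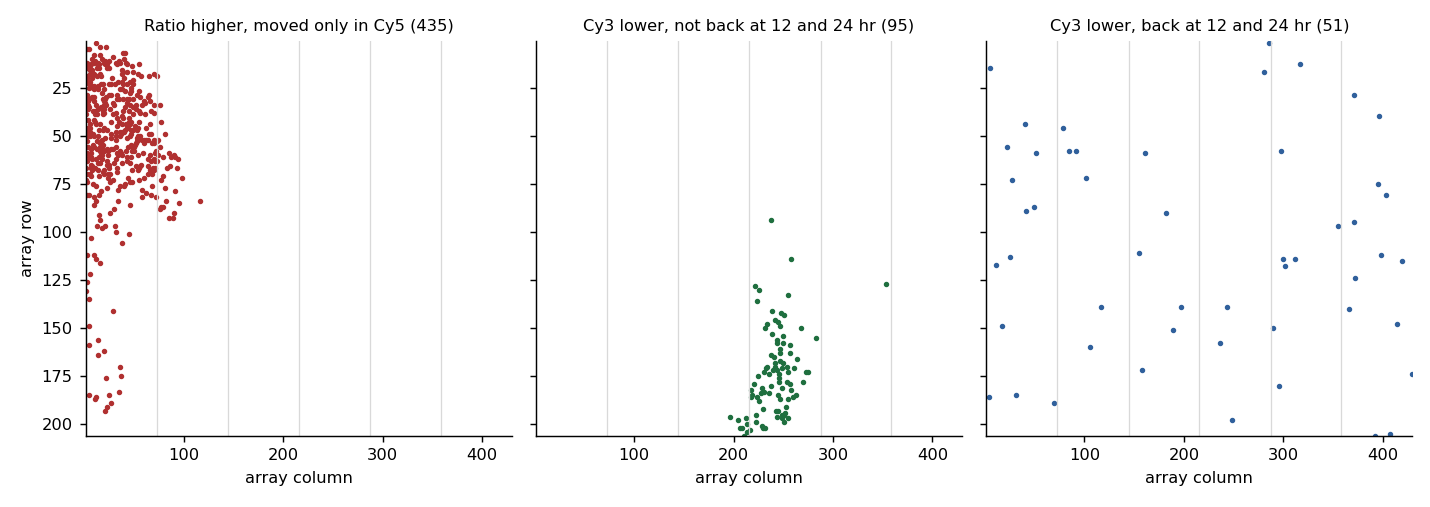
Place of the genes on the array (column horizontally, row vertically, grey lines at sixths of the width) for the 435 genes whose ratio moved only in Cy5, 95 genes lower in Cy3 that stayed lower at 12 and 24 hr, and 51 genes lower in Cy3 that came back. The first set lies in the first columns (92.6% in the first sixth), the second in a patch of the lower middle (89.5%), and the third is scattered over the array.

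The 51 genes that came back were not gathered in 1 place, and their ratio was lower with Cy3 (median -0.92 in the ratio, -0.98 in Cy3). Their 0 hr arrays differed by a median of 0.65 in Cy3, beside 0.13 over all genes, with the first array higher in 51 of 51. A run of GGG stood in 66.7% of their probes, beside 40.8% of all. The late arrays hold 25 of the sequences, and 0 of the 25 were called lower there, beside 3.83% of all matched genes, a share at which a count of 0 is near the background. Such a run is not particular to genes that came back, since the Foxd3, Zfp296 and Enox1 probes printed above hold one too. The probes of 7 named genes that were also called lower in the ratio at 6 hr are printed because 6 of the 7 share such a run of G, in capitals.
Taf15: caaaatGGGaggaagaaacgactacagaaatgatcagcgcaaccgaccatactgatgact
Eml2: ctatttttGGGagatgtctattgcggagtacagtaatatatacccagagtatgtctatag
Prpf19: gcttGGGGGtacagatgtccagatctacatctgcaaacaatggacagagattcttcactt
Tmed9: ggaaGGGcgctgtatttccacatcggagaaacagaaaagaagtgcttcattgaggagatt
Dnajc7: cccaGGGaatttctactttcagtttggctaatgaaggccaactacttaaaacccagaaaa
Vdac1: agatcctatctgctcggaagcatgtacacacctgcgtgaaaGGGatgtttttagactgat
Pafah1b1: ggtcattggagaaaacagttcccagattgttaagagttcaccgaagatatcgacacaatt

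Taf15, an RNA-binding subunit of TFIID, read 10.92 and 10.29 in Cy3 at 0 hr, 9.04 and 8.09 at 3 hr, 7.43 and 8.94 at 6 hr, then 11.33 and 10.45 at 12 hr. The arrays of 1 time were far apart at 3 and at 6 hr, and the 12 hr arrays overlapped those of 0 hr. Its ratio fell by 2.42 at 6 hr (adjusted p = 0.0394). A second and dimmer probe of Taf15 (7.53 against 10.61 in Cy3 at 0 hr) differed by -0.36 in Cy3 at 6 hr. Dnajc7, a co-chaperone of HSP70 and HSP90, read 13.72 and 13.21 at 0 hr, 11.64 and 11.19 at 3 hr, 12.48 and 12.72 at 6 hr, then 13.87 and 13.49 at 12 hr. Its ratio at 6 hr fell by 1.07 (adjusted p = 0.0416).

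Prpf19, an E3 ligase of the spliceosome, Eml2, a microtubule-binding protein, and Tmed9, of the secretory pathway, fell by 1.74, 1.78 and 1.65 in the ratio at 6 hr (adjusted p of 0.0416, 0.0328 and 0.0435). The same sequences were called higher at 24 hr on the late arrays, by 1.02, 0.84 and 0.89. Of the 51 genes, 5 have other probes, 6 in all, where Cy3 differed by a median of -0.12 against -1.28 at the first. Only 1 of the 6 reached 1.5-fold, a second probe of Pafah1b1 (-1.39, beside -1.31), a dynein regulator, whose remaining probe gave 0.06. That second probe was nearly as bright as the first (11.67 against 12.12 in Cy3 at 0 hr). The remaining other probes were dimmer, at 7.53 to 9.96 against 10.61 to 15.33 at the first probes. Whether a dim probe could show such a fall was not tested.

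The 17 ratio calls that moved down in Cy3 at 6 hr followed 2 courses. In 11 of them, 7 of them named (the genes printed above), Cy3 lay above the 6 hr arrays again on all 4 arrays of 12 and 24 hr. The first 0 hr array was the higher in 11 of 11, by 0.17 to 0.96. The remaining 6 lay below both 0 hr arrays at 12 and 24 hr, and these were Enox1, Foxd3, Spinkl, Tet2, Zfp296 and 1 unnamed probe, with gaps of -0.22 to 0.31 between the 0 hr arrays. All 6 had a lower Cy3 mean at 6 hr than at 3 hr, as had 3 of the 11 that came back. A run of GGG stood in the probes of 4 of the 6 and of 9 of the 11. On the late arrays 3 of 5 of the second kind were called lower (Foxd3, Tet2 and Zfp296) and 0 higher, and of the first kind 0 of 7 were called lower and 3 higher, beside 3.83% and 4.19% of all matched genes called lower and higher.

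**Figure D5:**
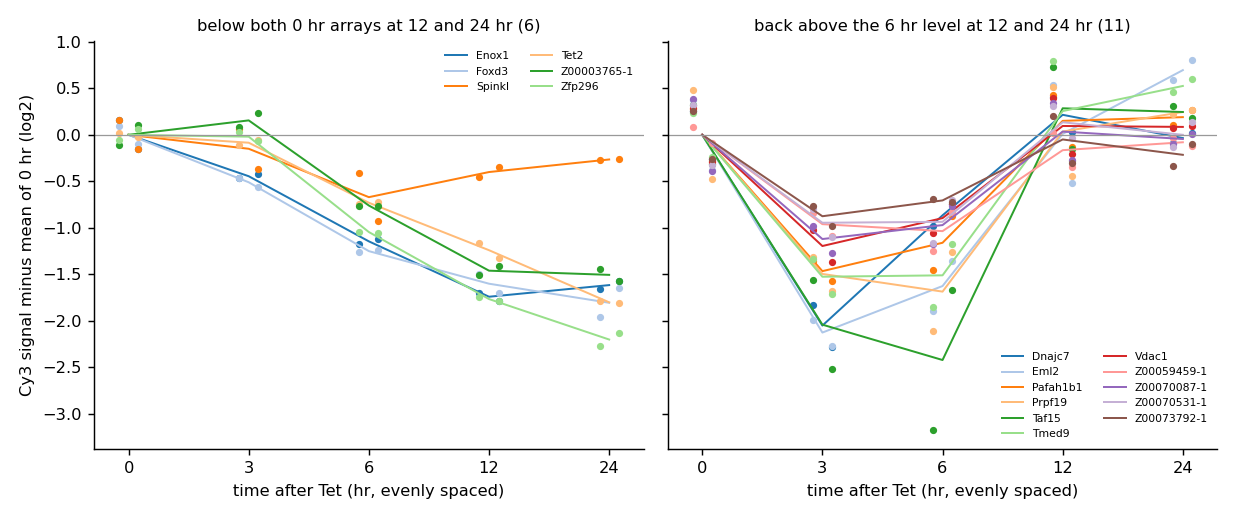
Cy3 signal minus the mean of the 0 hr arrays (log2) for the 17 genes called lower in the ratio at 6 hr that moved in Cy3, with points for arrays and lines through the means (times evenly spaced). The 6 genes on the left stay below both 0 hr arrays at 12 and 24 hr, and the 11 on the right dip at 3 and 6 hr and return.

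Of the other 19 lower ratio calls, with less than 1.5-fold in each channel, 12 lay below both 0 hr arrays in Cy3 at 12 and 24 hr. On the late arrays 12 of the 19 have the same sequence, and 6 of these were called lower there and 0 higher, beside 3.83% and 4.19% of all matched genes. They were Vegfc (-3.41), a growth factor of lymphatic vessels, Mtss1 (-1.68), which links actin to membranes, Smtnl2 (-1.08), Cep55 (-1.07), of the midbody in cell division, Xdh (-0.75), xanthine dehydrogenase, and 1 unnamed probe (-1.09). In Cy3 at 6 hr Vegfc differed by -0.38, Mtss1 by -0.53, Smtnl2 by -0.06, Cep55 by -0.33 and Xdh by -0.52, with 0.15 to 0.57 more signal in Cy5. In Cy3 at 24 hr of the early arrays, Vegfc read -1.67 and Xdh -1.14 from 0 hr.

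Between 3 and 6 hr the sample channel called 2 genes (0.00513%), Zfp296 and Dgkz, and the ratio called 1 (0.00256%), Galnt2. Dgkz, a diacylglycerol kinase, read 12.27 and 11.94 in Cy3 at 0 hr, 10.98 and 10.84 at 3 hr, 12.36 and 12.34 at 6 hr, then 12.71 and 12.47 at 12 hr. It was low on both 3 hr arrays and back at 6 hr, a rise of 1.44 between them (SE 0.13, adjusted p = 0.0138). Both Cy3 calls were lost without either 3 hr array, without either 6 hr array or without either 12 hr array, when the adjusted p was 0.087 to 0.203. Galnt2, a glycosyltransferase of the Golgi, read 10.90 and 10.93 in Cy3 at 3 hr and 10.90 and 10.92 at 6 hr, whereas Cy5 read 10.81 and 10.94 at 3 hr and 9.77 and 9.75 at 6 hr. It stands at column 69, in the first sixth, and the channel that moved under its call (1.21, adjusted p = 0.0259) was the reference.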

How the data were processed

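Cy3 carried the sample and Cy5 the reference on each two-color 60-mer array. The authors scanned the arrays and deposited Agilent Feature Extraction files, whose spot and local background intensities are not normalized. They also deposited a table of log10 values for part of the probes, normalized by them with a correction of Cy5 for bleaching, whose exact centring is not stated. It holds 25609 gene probes, followed the Cy3 signal (Spearman 0.985 to 0.997 per array) and served as an alternative.

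Intensities were background corrected with normexp (offset 50), outlier spots were set missing, spots of 1 probe were averaged, and ratios were normalized by loess within each array (limma 3.58.1, R 4.3.3). For single channels the array medians were equalized. Ratios are log2(Cy3/Cy5). A fit with lmFit and eBayes took all 10 early arrays, each time as its own group, so the arrays of 12 and 24 hr add to the estimate of the spread. A call needed a Benjamini-Hochberg adjusted p of at most 0.05 and a change of 1.5-fold. Each symbol was represented by its brightest probe and each unnamed probe stood alone. The study's error variance took the larger of a gene's own variance and the mean over 500 genes of similar intensity. The code was tested on simulated data.

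Of 42006 gene probes 16604 received a symbol (13608 symbols), 14767 through the accession of an identical probe sequence and 1837 from the study's tables. Late arrays were matched by identical probe sequence (19180 probes). Probes outside the named set, including those without a symbol, were tested too. The other arrays of the series are not used here. Pou5f1 and 12 fixed genes (Foxd3, Nr0b1, Klf2, Klf4, Mybl2, Sox2, Nanog, Zfp42, Fos, Egr1, Cdx2 and Gata2) were to be named, with the calls of the pooled contrast, of which there were none. All other names were chosen after their values were seen, and members and lists were chosen with earlier results of these data known. The split of calls by size, the single times and the local median (8 by 12 fields of the array) were also added after the data were seen. Alternatives were other scalings, processed signals, filters, fold thresholds, a replicate block and leaving out each array. Precision is limited by the number of arrays.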

Additional observations from a re-analysis of the deposited data

Results flagged for a closer look

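The effects at 3 hr and at 6 hr were compared by a test of the difference itself, in limma with Benjamini-Hochberg adjustment over all gene probes, and 3 genes passed it. The ratio of Galnt2 was 1.21 higher at 6 hr than at 3 hr (SE 0.10, adjusted p = 0.0259), on both arrays of each time, while its Cy3 signal was 10.90 to 10.93 on all 4 arrays. The Cy3 signal of Zfp296 differed by -1.03 (SE 0.09, adjusted p = 0.0138), lower on both 6 hr arrays than on either 3 hr array. The Cy3 signal of Dgkz was 1.44 higher at 6 hr than at 3 hr (SE 0.13, adjusted p = 0.0138). In the ratio Dgkz read -1.50 and -1.76 at 3 hr and -0.44 and -0.55 at 6 hr, a difference of 1.14 (adjusted p = 0.0664).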

How the results depend on the processing

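All counts are of genes called by limma unless a size is named. With 3 and 6 hr pooled, the ratio called 0 genes in the main setting, 891 with only the 6 arrays in the fit (36 moved in Cy3 and 453 only in Cy5), 541 with the replicate number as a block (23 and 307), 1 with the local median (1 moved in Cy3) and 3 in the authors' table. Leaving out 1 array gave 0 to 463 (0 to 30 moved in Cy3, 0 to 285 only in Cy5). Cy3 alone called 0, then 2 with the local median and 0 to 37 without 1 array. Cy5 alone called 0, then 111 with only the 6 arrays, and 0 without any 1 array.

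At 6 hr the ratio called 848 genes (19 moved in Cy3, 675 only in Cy5). It called 1679 with only the 6 arrays (38 and 1145), 28 with the bleaching correction (9 and 17), 0 by the study's error variance (0 and 0), 371 at 2-fold (7 and 204), 1453 with the replicate block (1051 only in Cy5), 5 with the local median (3 and 0) and 3 in the authors' table. Leaving out 1 array gave 0 to 1323 (0 to 34 moved in Cy3, 0 to 1008 only in Cy5). Cy3 alone called 3, then 0 with only the 6 arrays, processed signals, the study's error variance or the replicate block, 5 with no scaling or the local median, 8 with quantile scaling, and 0 to 36 without 1 array. Cy5 alone called 0, then 1160 with only the 6 arrays, 10 with the bleaching correction and 0 to 404 without 1 array.

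At 3 hr the ratio called 0, then 1 with the bleaching correction, the block or the local median, 3 in the authors' table and 0 to 1 without 1 array. Cy3 called 0, then 3 with the block or the local median and 0 to 3 without 1 array, and Cy5 called 0 in all settings run. From 3 to 6 hr Cy3 called 2, then 0 with only the 6 arrays, processed signals, no scaling or the study's error variance, 9 with the local median and 0 to 3 without 1 array.

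By size, 46 genes moved in Cy3 with a lower ratio (19 at 2-fold, 27 to 101 without 1 array). The 435 that moved only in Cy5 became 938 with processed signals, 821 with no scaling, 30 with the bleaching correction, 10 at 2-fold, 63 with the local median and 193 to 789 without 1 array. The 172 lower in Cy3 became 304, 715, 172, 26, 74 and 69 to 684 in the same order, and the 23 higher became 122, 4, 23, 0, 36 and 25 to 150. The late arrays called 1568 genes, and 1553 to 1700 without 1 array.

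No gene tested under the alternatives changed direction. In the ratio, the residuals of same-numbered arrays had a mean correlation of 0.114 (from -0.136 to 0.337). That correlation was taken in the ratio only, with few arrays per time, so it cannot decide whether the numbers pair the samples. The blocked counts are therefore given as alternatives to the main fit. A block for the scan date was not run, as the files hold no scan date. The cause of these moves was not tested.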
